A study of Homo sapiens with 6 samples.

Results

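The C/D box small nucleolar RNAs (snoRNAs) of H460 cells were compared between irradiated and control cultures. They were taken as the genes whose only platform symbol starts with SNORD and a digit, each read from its brightest transcript cluster (a probe group of 1 locus, here called a feature). This gave 173 genes of 22465 symbols with a transcript cluster of their own, on 188 of 67528 transcript clusters. Of the 173, 90 belong to the imprinted families SNORD113 (9), SNORD114 (31), SNORD115 (31) and SNORD116 (19), and 83 are other C/D box genes. H460 is an established human non-small cell lung cancer line, and all arrays come from it. The groups were 3 arrays of cells that received no radiation and 3 arrays of cells given 7 Gy, with replicates that the titles call biological. No label gives the time between irradiation and lysis. The series set out to measure long noncoding RNA changes after radiation, and the array also carries snoRNA features.

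C/D box snoRNAs are short nucleolar RNAs that pair with ribosomal or small nuclear RNA and direct the methyltransferase fibrillarin to the 2′-hydroxyl of a chosen nucleotide. Most are cut out of introns of host genes, many of which encode ribosomal proteins and translation factors. A few, such as U3, are transcribed from their own promoters and act in cleavage of the ribosomal RNA precursor. SNORD113 and SNORD114 lie in tandem arrays on chromosome 14 in the DLK1-DIO3 region and are expressed from the maternal allele. SNORD115 and SNORD116 lie on chromosome 15 in the long transcript SNHG14, are expressed from the paternal allele, and loss of SNORD116 is linked to Prader-Willi syndrome. SNORD115 is known mainly from brain.

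The mature snoRNA sequences are not used here. The starts of 2 transcripts of the imprinted regions are shown, and whether either start drives the snoRNA copies was not tested. The first is the start of SNURF, the first open reading frame of the SNURF-SNRPN transcript, at the imprinting centre upstream of SNORD116. The second is the start of MEG3, the maternally expressed long noncoding RNA of the SNORD113 and SNORD114 region. Each runs from 250 bases before the RefSeq start to 50 after it (GRCh38.p14), with CG dinucleotides, the sites of DNA methylation, in capitals.
SNURF, chr15:24954737-24955036, plus strand: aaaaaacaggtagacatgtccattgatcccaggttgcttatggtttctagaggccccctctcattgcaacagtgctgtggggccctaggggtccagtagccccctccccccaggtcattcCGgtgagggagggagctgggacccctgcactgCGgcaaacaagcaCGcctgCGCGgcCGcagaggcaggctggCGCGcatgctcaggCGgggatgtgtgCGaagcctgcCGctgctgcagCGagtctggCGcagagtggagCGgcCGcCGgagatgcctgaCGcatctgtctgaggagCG
MEG3, chr14:100825858-100826157, plus strand: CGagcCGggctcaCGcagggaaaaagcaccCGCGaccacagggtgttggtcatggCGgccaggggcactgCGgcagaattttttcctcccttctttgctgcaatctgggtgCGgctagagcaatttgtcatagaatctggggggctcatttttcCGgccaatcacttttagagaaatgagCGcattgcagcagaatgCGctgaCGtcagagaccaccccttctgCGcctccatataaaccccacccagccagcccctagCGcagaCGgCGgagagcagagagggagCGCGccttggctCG
The SNURF window held 18 CG dinucleotides and the MEG3 window 19, against a median of 14 over 35116 windows of the same length. Of those windows, 44.5% held at least 18 and 42.9% at least 19. These counts describe the sequence, and methylation was not measured.

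Of the 173 C/D box genes, limma called 3 higher and 0 lower at an adjusted p under 0.05. Among all 67528 transcript clusters 5.05% were called, 2.25% higher and 2.80% lower. The share of C/D box genes called higher was thus near the background. At an unadjusted p under 0.05 there were 27 higher and 3 lower, against 10.8% and 7.60% of all transcript clusters. Of the 27, 13 were SNORD116 copies. The trended and the unmoderated test called 0 lower as well. The genes called higher were SNORD71, SNORD92 and SNORD116-27. The median log2 difference (irradiated minus control) was 0.03 over the 173 genes and 0.03 over all transcript clusters. Signals are log2 units. A signal also depends on the probes, so different features compare only roughly, also where genes are ranked or banded by signal.

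SNORD71, a snoRNA in an intron of the adaptor protein gene AP1G1, had control signals of 9.60, 9.56 and 9.60 and irradiated signals of 9.99, 10.20 and 9.90. Every irradiated array lay above every control array. The log2 difference was 0.44 (SE 0.08, limma adjusted p = 0.0211), a 1.36-fold rise. Its host AP1G1 had a difference of -0.01 (SE 0.05, adjusted p = 0.934 by limma).

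SNORD92, in an intron of the ribosome biogenesis gene WDR43, had control signals of 4.81, 4.79 and 4.71 and irradiated signals of 4.98, 5.26 and 5.14, again without overlap. The difference was 0.36 (SE 0.08, limma adjusted p = 0.0426). The host WDR43 had -0.15 (adjusted p = 0.117 by limma), and SNORD53, the other C/D box gene of that host in the set, had 0.13 (adjusted p = 0.419 by limma) with overlapping groups. Each of these snoRNA calls depended on single arrays. Without irradiated 1 the call of SNORD71 was lost, as it was without any control array (limma adjusted p up to 0.0895). SNORD92 was called without irradiated 1 and in no other fit with an array left out (up to 0.129).

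The signals of the 4 imprinted families were set against background probes. The 23 background controls, probe sets of fixed GC count with no target, had mean signals from 2.17 to 11.67 with a median of 3.74, rising with GC count. The mean lay under that median for 31 of 31 SNORD115 genes, 27 of 31 SNORD114 genes and 8 of 9 SNORD113 genes, against 2 of 19 SNORD116 genes and 6 of 83 other C/D box genes. Because the background of a probe set depends on its GC content, which is not in the files, whether a dim feature was above background cannot be settled. The plot of signal against difference shows the SNORD115 and SNORD114 genes gathered to the left of the background median.

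**Figure D1:**
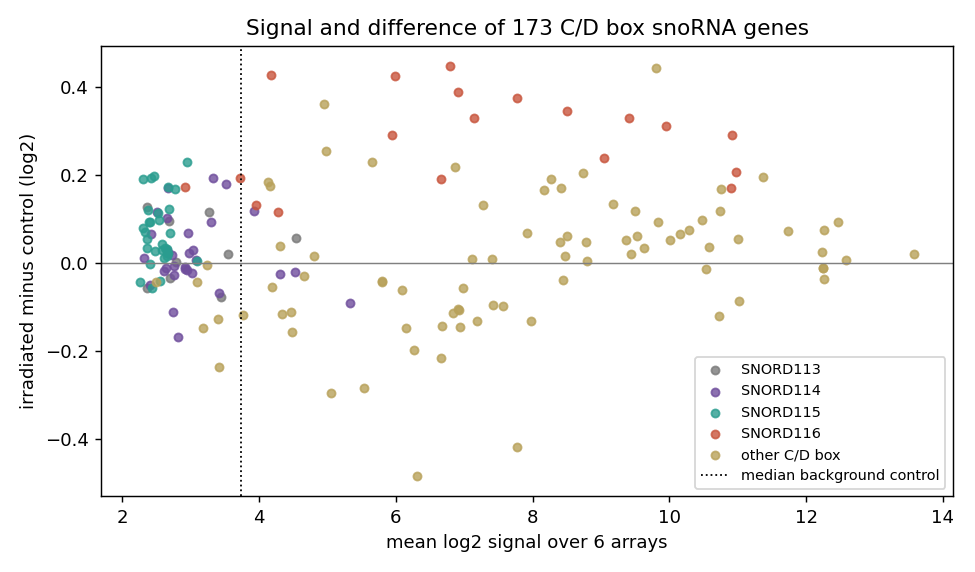
Each point is 1 of 173 C/D box genes, with the mean log2 signal over 6 arrays on the x axis and the log2 difference (irradiated minus control) on the y axis. The dotted line is the median background control at 3.74. SNORD115 lies wholly to its left, SNORD116 spreads from 2.92 to 10.97 with every difference above 0, and the other C/D box genes lie on both sides of 0.

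SNORD116 was the imprinted family with positive differences throughout. Its 19 genes had log2 differences from 0.12 to 0.45 with a median of 0.29, against 0.05 for SNORD115, 0.01 for SNORD114, 0.02 for SNORD113 and 0.01 for the other 83 C/D box genes. The median of the other genes ran from -0.05 to 0.09 with 1 array left out. Without irradiated 1 it was 0.09, above the 0.08 of all imprinted genes, while the SNORD116 median was 0.40. Of all transcript clusters, 60.7% had a positive difference. Only 1 SNORD116 gene was called at an adjusted p under 0.05, and 13 of 19 were higher at an unadjusted p under 0.05, against 10.8% of all transcript clusters. For 7 of the 19 every irradiated array exceeded every control array, against 15.2% of all transcript clusters. The copies share a host transcript and much of their sequence, so the 19 values are not 19 independent measurements. In bulk RNA, a change in the number of cells that express a gene and a change in RNA per cell cannot be told apart.

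**Figure D2:**
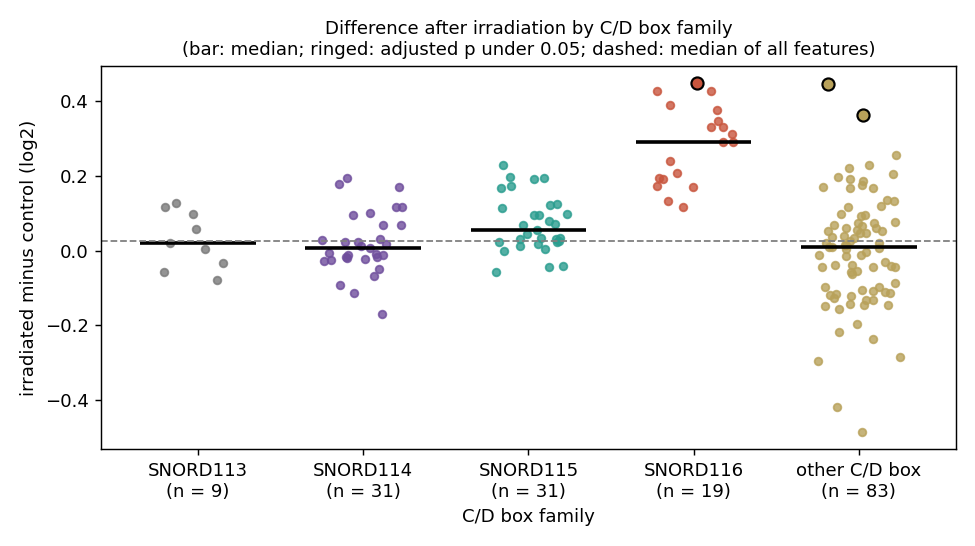
Log2 differences (irradiated minus control, y axis) of the C/D box genes by family, 1 point a gene. Bars are medians, ringed points passed an adjusted p under 0.05, and the dashed line is the median of all transcript clusters at 0.03. The SNORD116 median is 0.29, and the 4 other medians lie between 0.01 and 0.05.

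SNORD116-27 had control signals of 6.59, 6.47 and 6.63 and irradiated signals of 6.80, 7.14 and 7.10, without overlap. Its difference was 0.45 (SE 0.10, limma adjusted p = 0.0480), a 1.36-fold rise. That call held without irradiated 1 but not without any other array (adjusted p by limma up to 0.161). It was also lost when control features joined the fit (0.0526) and with arrays centred on their medians (0.0593). The next copy in the order along the cluster with a symbol of its own, SNORD116-29, had control signals of 5.82, 5.56 and 5.93 and irradiated signals of 5.71, 6.48 and 6.39. Irradiated 1 lay among the controls there, and the difference was 0.43 (SE 0.20, adjusted p = 0.323 by limma). SNORD116-26 (0.39, SE 0.09) and SNORD116-30 (0.43, SE 0.13) did not overlap between groups and had adjusted p of 0.0555 and 0.120 by limma. SNORD116-29 was called without irradiated 1 (difference 0.67, adjusted p = 0.0320 by limma).

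The 2 copies with the highest signals were SNORD116-17 and SNORD116-15. SNORD116-17 had control signals of 10.92, 10.77 and 10.91 and irradiated signals of 10.91, 11.12 and 11.19, a difference of 0.21 (SE 0.08, adjusted p = 0.244 by limma). SNORD116-15 went from 10.84, 10.63 and 10.83 to 10.90, 11.10 and 11.17, a difference of 0.29 (SE 0.09, adjusted p = 0.136 by limma). In SNORD116-17 irradiated 1 fell inside the control range, and in SNORD116-15 the groups did not overlap. The copies are commonly sorted by sequence into group I (copies 1 to 9), group II (10 to 24) and group III (25 to 30), a sorting applied here after the values were seen. The median difference was 0.35 over the 3 measured copies of group I, 0.19 over 11 of group II and 0.43 over 5 of group III. The smallest difference was 0.12, in SNORD116-11 of group II (SE 0.13), whose groups overlapped. No difference between these groups was tested.

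**Figure D3:**
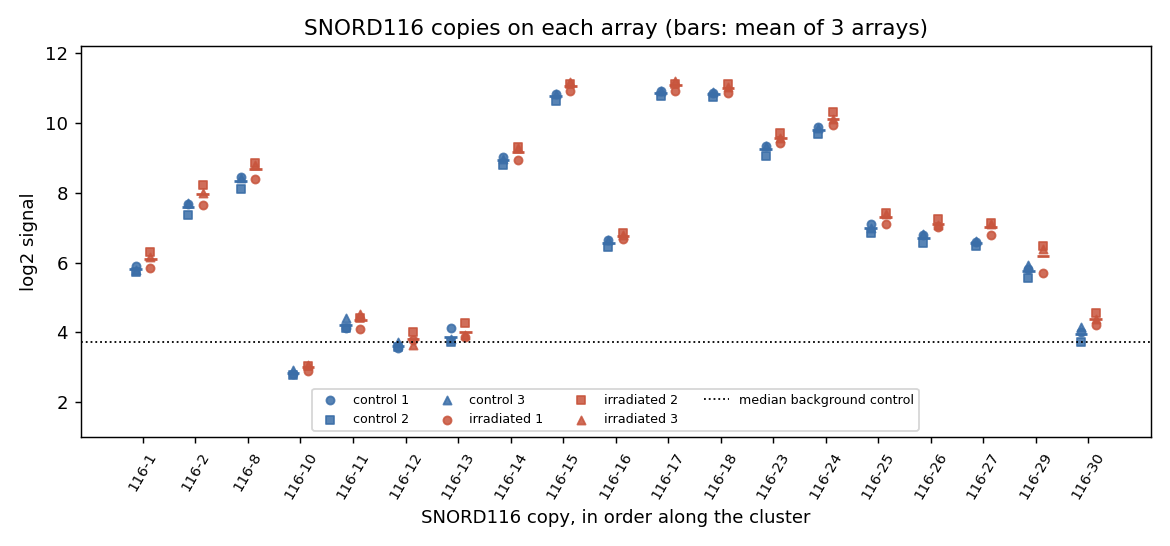
Log2 signal (y axis) of the 19 SNORD116 copies in their order along the cluster (x axis), with 1 marker an array (blue control, red irradiated) and a bar at the mean of 3 arrays. Irradiated 2 lies above the highest control for 19 of 19 copies, irradiated 3 for 17 and irradiated 1 for 8.

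The arrays did not contribute equally. Irradiated 2 lay above the highest control array for 19 of 19 SNORD116 copies, irradiated 3 for 17 and irradiated 1 for 8. Control 2 lay below the control mean for every copy. The other 83 C/D box genes also shifted by array. Their median deviation from the control mean was 0.06, -0.09 and 0.02 on controls 1, 2 and 3, and -0.15, 0.14 and 0.05 on irradiated 1, 2 and 3. The median over all transcript clusters moved between -0.01 and 0.03 on the same 6 arrays. The part of this array shift in single snoRNA differences was not tested.

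Set against the other C/D box genes of the same array, SNORD116 was higher on each irradiated array. Taken alone, it was not higher on irradiated 1 than on controls 1 and 3. The SNORD116 median deviation was 0.07, -0.14 and 0.07 on controls 1, 2 and 3, and 0.07 on irradiated 1. On irradiated 1 the other genes were at -0.15. The SNORD116 median deviation minus that of the other genes was 0.01, -0.04 and 0.05 on the controls, and 0.22, 0.31 and 0.30 on the irradiated arrays. The mean was 0.01 ± 0.05 in controls and 0.28 ± 0.05 in irradiated cells (SD, n = 3 each), and the ranges did not overlap. Deviations were taken from the control mean of each gene, so the control value lies near 0 by construction. This comparison was made after the values were seen and carries no test.

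**Figure D4:**
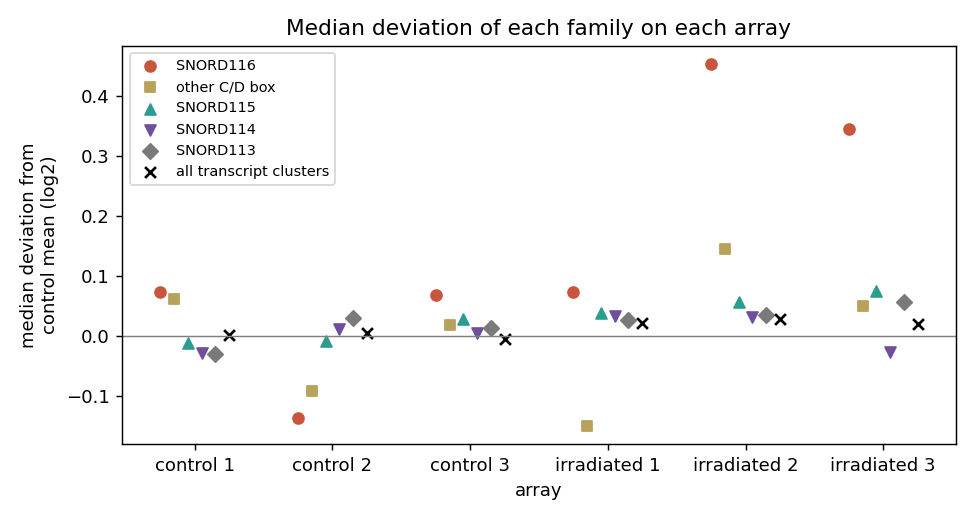
Median deviation from the control mean (log2, y axis) of each C/D box family and of all transcript clusters on each of 6 arrays (x axis). SNORD116 (circles) stands at 0.07, -0.14 and 0.07 on controls 1, 2 and 3. On irradiated 1, 2 and 3 it stands at 0.07, 0.45 and 0.34. The other C/D box genes (squares) are lower on each irradiated array, at -0.15, 0.14 and 0.05.

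Features that carry several symbols gave the neighbourhood of this cluster without naming a gene. There were 6 features assigned only to pairs of SNORD116 copies, with 4 distinct sets of values, and their differences ran from 0.19 to 0.33. Calls by limma numbered 0, also in its trended and unmoderated forms. At an unadjusted p under 0.05, 4 of the 6 were higher (3 of the 4 distinct sets), against 10.8% of all transcript clusters. The 11 features of chromosome 15 that carry symbols of the host transcript or of its neighbouring C/D box copies had a median difference of 0.10 and a range of -0.02 to 0.24. Calls by limma numbered 0 here too (trended 0, unmoderated 1). At an unadjusted p under 0.05, 5 of the 11 were higher (4 of 10 distinct sets), again against 10.8%. The 11 features assigned only to several SNORD115 copies, with 4 distinct sets of values, ran from -0.11 to 0.02. The moderated, trended and unmoderated tests called 0 of them, with 0 at an unadjusted p under 0.05.

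Genes of the imprinted region of chromosome 15 with their own symbol showed no call. Of 13 listed genes 6 were measured, with a median difference of -0.000331, and limma, the trended and the unmoderated test each called 0, with 0 at an unadjusted p under 0.05. UBE3A, the ubiquitin ligase gene at the far end of the region, had -0.08 and NDN, the gene of the growth suppressor necdin, 0.02. SNRPN, SNURF and SNHG14 had no feature of their own symbol.

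SNORD115, which lies downstream of SNORD116 in the same host transcript, had no called gene. Of its 31 genes limma called 0. At an unadjusted p under 0.05, 5 were higher, against 10.8% of all transcript clusters, and the trended and the unmoderated test called 0. Differences ran from -0.06 to 0.23, and 27 of 31 were positive. The positive share was 60.7% of all transcript clusters and 72.8% of those with a mean signal under 4. For 8 of the 31 every irradiated array exceeded every control array, against 15.2% of all transcript clusters. SNORD115-24, the member with the highest mean signal, was at 3.05, 3.10 and 3.13 in controls and at 3.05, 3.12 and 3.13 after irradiation. SNORD115-33 had the largest difference of the family (0.23, SE 0.12, adjusted p = 0.366 by limma), with irradiated 2 at 3.32 and the other arrays between 2.70 and 2.98.

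The chromosome 14 families showed no called gene either. Of 31 SNORD114 genes limma called 0. At an unadjusted p under 0.05, 3 of them were higher, a share near the 10.8% of all transcript clusters. Of 9 SNORD113 genes it called 0, with 0 at that level. The trended and the unmoderated test called 0 in both families. SNORD114-31 had control signals of 5.42, 5.35 and 5.37 and irradiated signals of 5.31, 5.23 and 5.33, with a difference of -0.09 (SE 0.05, adjusted p = 0.382 by limma). All 3 irradiated values lay below the controls, as was so for 9.41% of all transcript clusters. SNORD114 differences ran from -0.17 to 0.19. SNORD113-7 had 4.36, 4.64 and 4.53 in controls and 4.65, 4.56 and 4.49 after irradiation, with overlapping groups and a difference of 0.06. Of 6 listed genes around them 5 were measured, and limma, the trended and the unmoderated test called 0, with 0 at an unadjusted p under 0.05. MEG3 differed by 0.01 and DLK1, a Notch ligand-like gene, by 0.01.

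Among the other 83 C/D box genes, 44 had a positive and 39 a negative difference, with 2 called higher. At an unadjusted p under 0.05, 6 were higher and 3 lower, against 10.8% and 7.60% of all transcript clusters. The independently transcribed U3 gene SNORD3A had control signals of 12.64, 12.48 and 12.60 and irradiated signals of 12.33, 12.72 and 12.70. Irradiated 1 was the lowest of the 6 arrays, and the difference was 0.01 (SE 0.11). The U3 copies SNORD3B-1 and SNORD3D had -0.01 and -0.04. U3 copies are nearly identical in sequence, and 2 of them (SNORD3B-1 and SNORD3B-2) had the same values on every array. Those 2 are 1 measurement, though the gene counts here hold both.

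SNORD13, which guides acetylation of 18S ribosomal RNA, was at 13.58, 13.57 and 13.55 in controls and at 13.53, 13.63 and 13.60 after irradiation, a difference of 0.02 (SE 0.05). SNORD60 (0.08, SE 0.08) also had overlapping groups and no call. SNORD118, the U8 RNA of 28S and 5.8S maturation, had no feature of its own symbol.

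The largest negative differences were not called. SNORD75, in an intron of the GAS5 host gene, had control signals of 6.70, 6.46 and 6.50 and irradiated signals of 5.82, 6.23 and 6.16. The groups did not overlap, and the difference was -0.48 (SE 0.12, adjusted p = 0.0674 by limma). SNORD51, in an intron of the elongation factor gene EEF1B2, had 8.02, 7.87 and 8.07 in controls and 7.36, 7.80 and 7.54 after irradiation, also without overlap (-0.42, SE 0.11, adjusted p = 0.0918 by limma). SNORD66 (-0.30), SNORD1A (-0.28) and SNORD20 (-0.24) followed, with adjusted p by limma of 0.115, 0.390 and 0.417. Irradiated 1 was the lowest array for SNORD75 and SNORD51. SNORD51 and SNORD66 were called lower without irradiated 2 (differences of -0.53 and -0.38, limma adjusted p = 0.0335 and 0.0497), the array with the highest median deviation of these 83 genes.

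The share of positive differences among these 83 genes was counted in bands of signal chosen after the values were seen. Of 44 genes with a mean signal under 8, 12 (27.3%) had a positive difference, and the median was -0.10. Of 39 with a mean signal of 8 or more, 32 (82.1%) were positive, with a median of 0.05. Finer bands gave no steady order. The positive share was 0 of 7 under 4, 7 of 16 from 4 to 6, 5 of 21 from 6 to 8, 17 of 18 from 8 to 10 and 15 of 21 from 10 up. Over all transcript clusters the order of the broad bands was the opposite, with 61.7% positive under 8 and 43.3% at 8 or more. Within SNORD116, 12 of 12 copies under 8 and 7 of 7 at 8 or more were positive. Some hosts had 3 measured members assigned to them, and hosts were assigned to only part of the genes. The 3 snoRNAs of RPL4 (SNORD16, SNORD18A and SNORD18B) ran from -0.12 to 0.10. The 3 of ZFAS1 (SNORD12, SNORD12B and SNORD12C) ran from -0.13 to 0.03, and the 3 SNORD88 copies from -0.06 to 0.05.

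Transcripts of the proteins that bind C/D box RNAs were counted next. Of the 4 genes of core proteins of the particle, 3 had a feature of their own. All 3 transcripts fell, against 2.80% of all transcript clusters. NOP58, a core scaffold protein, had control signals of 8.56, 8.43 and 8.53 and irradiated signals of 7.78, 7.75 and 7.78. Its difference was -0.73 (SE 0.05, limma adjusted p = 6.25e-04), a 1.66-fold decrease that stayed called on leaving out any 1 array. FBL, the fibrillarin methyltransferase, went from 9.48, 9.55 and 9.64 to 9.06, 9.22 and 9.16 (-0.41, SE 0.06, limma adjusted p = 0.0132). SNU13, which binds the kink-turn formed by the boxes, went from 6.31, 6.33 and 6.26 to 6.05, 6.05 and 6.05 (-0.25, SE 0.04, limma adjusted p = 0.0194). The groups overlapped for none of the 3. The call of FBL was lost without control 2 (adjusted p = 0.0599 by limma), and that of SNU13 was lost on leaving out 5 of the 6 arrays in turn (up to 0.0921).

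Of 13 measured genes of particle assembly and maturation, 2 fell, 0 rose and 11 did not pass, with a median of -0.10. Of all transcript clusters, 2.80% were called lower. NOLC1, the nucleolar phosphoprotein Nopp140 that escorts snoRNAs, fell by 0.60 (SE 0.05) on the log2 scale, and RUVBL2, an ATPase of the assembly complex, fell by 0.38 (SE 0.04). The adjusted p-values by limma were 0.00137 and 0.00317. Both calls held on leaving out any 1 array. At an unadjusted p under 0.05, 6 of the 13 were lower and 1 higher, against 7.60% and 10.8% of all transcript clusters.

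Of 20 genes of the U3 particle and the early small-subunit processome, 6 fell, 0 rose and 14 did not pass, with a median of -0.18 and 19 negative differences. The share called lower over all transcript clusters was 2.80%. UTP20 went from 7.09, 7.02 and 7.14 to 6.53, 6.48 and 6.53 (-0.57, SE 0.05, limma adjusted p = 0.00136), and NOL11, which acts in processome function and ribosomal DNA transcription, fell by 0.39 (SE 0.05). UTP15 (-0.25), UTP4 (-0.24), IMP4 (-0.23) and WDR75 (-0.23) were also called lower, with adjusted p by limma of 0.0260 to 0.0474. None of these 4 calls survived the loss of an array (adjusted p by limma up to 0.176). The number called over the 36 measured genes of the 3 protein lists was 11, and 5 to 7 with 1 array left out.

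Host genes of the C/D box snoRNAs were measured under their own symbol in 21 of 61 cases, since many host features also carry snoRNA symbols. Of the 21, 6 fell, 0 rose and 15 did not pass, with a median of -0.12. Against this, 2.80% of all transcript clusters were called lower. At an unadjusted p under 0.05, 11 of the 21 were lower and 3 higher, against 7.60% and 10.8% of all transcript clusters. NOP58, itself a host, led with -0.73. NCL, the nucleolin gene, went from 10.22, 10.22 and 10.21 to 9.67, 9.68 and 9.75 (-0.52, SE 0.05, limma adjusted p = 0.00144). The splicing genes SF3B3 (-0.44) and SNRPB (-0.44), the ribosome assembly gene TSR1 (-0.32) and the initiation factor gene EIF4G1 (-0.30) also fell, with adjusted p by limma of 0.00175, 0.00314, 0.0108 and 0.0168. The call of EIF4G1 was lost without any 1 control array or irradiated 3 (adjusted p by limma up to 0.0749). That of TSR1 was lost without control 1 or control 2 (up to 0.052). With the replicate number as a block, adjusted p by limma was 0.0591 for EIF4G1 and 0.0509 for TSR1.

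Hosts were assigned here to 60 of the 173 C/D box genes, so pairs can be missing. This gave 28 pairs of a C/D box gene and a measured host, over 20 hosts. In the 10 pairs with a called host, 0 of the snoRNAs were called by limma. Over all transcript clusters 5.05% were called, so 0 of 10 is near that share. SNORD11 and SNORD11B, in introns of NOP58, had -0.14 and -0.06. SNORD70, the neighbouring C/D box gene on chromosome 2, is in no pair here and had 0.17 (SE 0.13) with overlapping groups. SNORD82 and SNORD20, in introns of NCL, had -0.12 and -0.24. SNORD66 had the same difference as its host EIF4G1 to 2 decimals (-0.30). Across the 28 pairs both differences were negative in 11, both positive in 3, the snoRNA positive and the host negative in 12, and the reverse in 2. Pearson's r was 0.43 and Spearman's rho 0.41 over these pairs, which share the 6 arrays and in part the host, so they are a description. The difference between a snoRNA and its host was not tested.

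**Figure D5:**
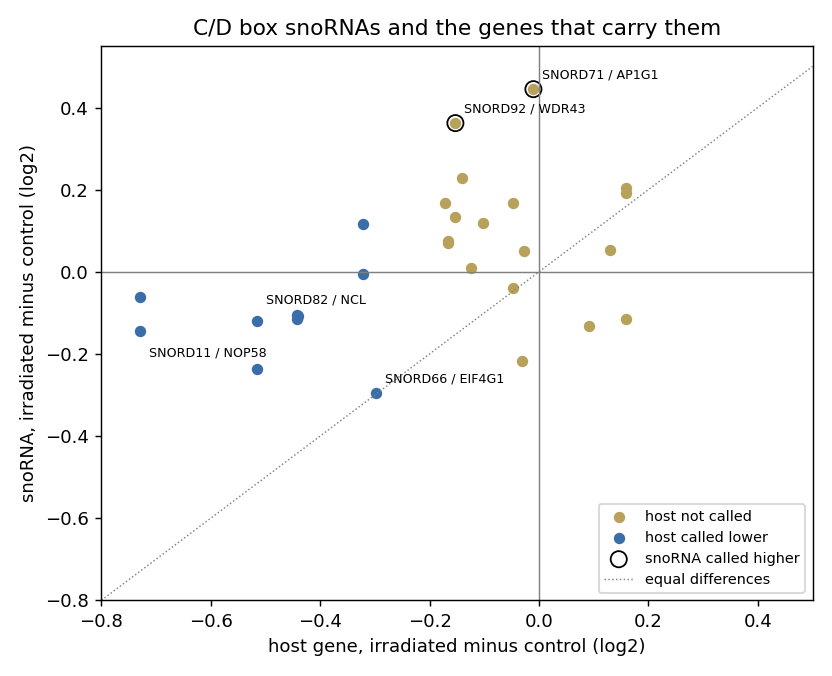
Log2 difference of each C/D box snoRNA (y axis) against that of its host gene (x axis) for 28 pairs, with blue points for hosts called lower and rings for the 2 called snoRNAs. The 10 blue points lie on or above the dotted line of equal differences, with SNORD11 at -0.14 beside NOP58 at -0.73.

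A further 77 features carry several symbols with at least 1 C/D box symbol, mostly host loci, with 63 distinct sets of values. Of the 77, 7 were called lower and 1 higher, against 2.80% and 2.25% of all transcript clusters. These features are not named, since the signal cannot be given to a gene. The 173 named genes are part of the 362 C/D box symbols in the reference table.

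Array-wide values set the frame for these results. Array medians lay between 4.65 and 4.70, and pairs of arrays correlated (Pearson, across transcript clusters) at 0.997 to 0.998 within controls, 0.996 within irradiated arrays and 0.994 to 0.995 between groups. The keratin genes KRT8 and KRT19 had mean signals of 10.86 and 10.23. The epithelial markers EPCAM (4.04) and CDH1 (5.15) were dim, with EPCAM near the background median. Of 5 epithelial, 6 fibroblast and 5 blood cell markers, 0 passed in limma; 2, 1 and 1 had an unadjusted p under 0.05, and the trended and the unmoderated test called 0 in each list. The fibroblast markers had mean signals from 2.92 to 6.46 and the blood cell markers from 2.88 to 6.09.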

How the data were processed

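RNA was extracted with TRIzol, labelled with biotin and hybridised to the Human Transcriptome Array 2.0, per the labels' protocols. The authors deposited log2 signals summarised by gene. Their making is described in conflicting ways: RMA per the labels, MAS5 per the submitters' processing notes. Which of them made the values was not settled. No source used here names versions or an annotation build, so features carry no coordinates.

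All 67528 transcript clusters were fitted (R 4.3.3, limma 3.58.1) with lmFit and eBayes as 3 against 3 arrays, two-sided and with no block. P-values were adjusted by Benjamini-Hochberg over all of them, and calls were made at an adjusted p under 0.05. The script was tested on simulated data. Symbols came from the platform table, and 173 of 173 member symbols were found in a RefSeq gene table (GRCh38.p14), which also gave the order of copies. For 4 symbols with several features, the brightest was used. Gene lists (particle proteins, processome, hosts, imprinted neighbours, markers) are counted, with no set test. The members and lists were chosen with earlier results of these data known. Alternatives were the trended and unmoderated tests, a replicate block, each array left out, all features, a signal minimum, quantile normalization, centred medians, identical features once and the mean of a symbol's features. Named were called members, the 6 brightest, the 2 brightest of each imprinted family, the 5 largest differences each way, SNORD3A and SNORD13, called list genes and the hosts of called members. 1 gene that this rule names is not reported here. Other names were chosen after their values were seen. Arrays have no read depth, and their number limits the precision. P-values measure the spread between these arrays, which the titles call biological replicates.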

Additional observations from a re-analysis of the deposited data

How the results depend on the processing

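With 3 arrays a group, the snoRNA calls rest on few arrays, while the SNORD116 direction held: 19 of 19 copies stayed positive in each of the 6 fits with an array left out and under every other setting, except that 14 of 14 were positive among features at or above the median signal, where 5 copies were not tested. The SNORD116 median was 0.22 to 0.40 over the fits with an array left out. The deviations of same-numbered arrays from their group means correlated at -0.01, -0.07 and -0.04. These values, from 3 arrays a group, cannot settle whether arrays with the same number came from paired samples. A fit with the replicate block called 1598 transcript clusters in all, 0 members higher, 0 imprinted members, 0 SNORD116 and 0 other members, and 6 particle and processome genes.

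Leaving out 1 array gave 1559 to 2379 calls over all transcript clusters, 0 to 4 members called higher, 0 to 2 lower, 0 to 3 imprinted or SNORD116 members, 0 to 3 other members, 4 to 6 hosts and 5 to 7 particle and processome genes (main values 3411, 3, 0, 1, 2, 6 and 11). The trended test called 5 members higher, 2 of them SNORD116. The unmoderated test called 1 member (SNORD17, of the other group), 0 imprinted and 0 SNORD116. Only features at or above the median signal gave 5 members higher, 1 lower, 2 imprinted (both SNORD116) and 4 others. That fit called 10 hosts and 21 particle and processome genes, with an imprinted median of 0.31 from the few copies left. Fewer features were tested there, and a larger share was called, 4716 of 33764 against 3411 of 67528 in the main fit. The higher counts of hosts and of particle and processome genes thus came with more frequent calls across the array. Quantile normalization moved the imprinted median from 0.07 to 0.0139. With all features, or with array medians centred, 0 imprinted and 0 SNORD116 members were called. The cause of these changes was not tested. Differences near 0 changed sign: under quantile normalization SNORD13 (-0.0249), SNORD113-8 (-0.0213), SNORD115-24 (-0.0474) and AP1G1 (0.0131), and with centred medians SNORD3A (-0.0111) and SNORD115-24 (-0.0122). With an array left out, SNORD3A ran from -0.0601 to 0.134, SNORD3B-1 from -0.0808 to 0.113, SNORD3D from -0.121 to 0.101, SNORD113-7 from -0.0195 to 0.121, SNORD114-14 from -0.0613 to 0.0365, SNORD115-24 from -0.0141 to 0.0286 and AP1G1 from -0.0349 to 0.013.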
